A study of Mus musculus with 8 samples.

Results

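The S100 genes encode small calcium-binding proteins, and 10 of them were examined in ventricles of the heart after myocardial infarction (MI): S100a1, S100a4, S100a6, S100a8, S100a9, S100a10, S100a11, S100a13, S100a16 and S100b. They were chosen by name. Each was represented by the array probe designed on a RefSeq transcript of the gene that was brightest among probes detected, meaning well above background, on 4 or more of the 8 arrays. All 10 genes had such a probe, out of 15156 genes with a symbol and a retained probe. The 8 arrays held RNA of male mice of the C57BL\6 background, taken 24 hours after surgery. The 4 MI mice had a permanent ligation of the anterior interventricular artery, without reperfusion, and the 4 sham-operated mice had the same operation without tying the artery. Whole ventricular tissue was homogenized, so infarcted and remote muscle, blood and infiltrating cells were measured together. RNA was labeled in 1 colour and each mouse had its own array.

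S100 proteins bind calcium through EF-hand motifs, change shape and then attach to target proteins, mostly as dimers. Inside cells they act on the cytoskeleton, on membranes through annexins and, in cardiac muscle, on calcium cycling. Some are released from stressed or activated cells and act as danger signals on neighbouring cells. S100a8 and S100a9 form the heterodimer calprotectin, which is abundant in the cytosol of neutrophils and also present in monocytes. S100a1 is the form best known from cardiomyocytes, and S100b is best known from glial cells.

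The upstream sequences of the 3 genes that rose after MI are shown first, because S100a8 and S100a9 moved together and S100a11 less far. Each run holds the 250 bases before the RefSeq start of the gene, read 5′ to 3′ on the strand of the gene, in the GRCm38.p6 build. The S100a8 run lies at chr3:90668821-90669070 on the plus strand, the S100a9 run at chr3:90695722-90695971 on the minus strand and the S100a11 run at chr3:93520246-93520495 on the plus strand. Capitals mark matches, on either strand, to the AP-1 motif TGANTCA, to the letters TTNCNNAA used for C/EBP, or to the TATA box TATAAA.
S100a8: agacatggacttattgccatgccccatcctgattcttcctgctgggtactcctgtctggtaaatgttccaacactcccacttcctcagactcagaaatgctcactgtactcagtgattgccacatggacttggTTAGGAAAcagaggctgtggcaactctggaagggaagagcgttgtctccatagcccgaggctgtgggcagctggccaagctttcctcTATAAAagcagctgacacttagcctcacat
S100a9: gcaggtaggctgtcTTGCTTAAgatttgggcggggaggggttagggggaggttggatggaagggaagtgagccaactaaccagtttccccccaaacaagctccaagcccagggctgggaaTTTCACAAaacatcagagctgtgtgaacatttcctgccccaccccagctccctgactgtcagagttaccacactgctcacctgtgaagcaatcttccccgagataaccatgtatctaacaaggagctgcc
S100a11: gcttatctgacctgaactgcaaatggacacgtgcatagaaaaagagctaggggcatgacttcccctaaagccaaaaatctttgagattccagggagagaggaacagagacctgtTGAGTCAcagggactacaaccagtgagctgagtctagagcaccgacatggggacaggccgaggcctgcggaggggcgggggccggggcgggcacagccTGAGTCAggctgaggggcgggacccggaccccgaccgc
The S100a8 run held a TATA box at position -30 from the start and 1 C/EBP match at -117, and the S100a9 run held 2 C/EBP matches, at -236 and -130, and no TATAAA. The S100a11 run held AP-1 matches at -136 and -38. Matches to the C/EBP letters are common: 36.8% of the 32851 upstream windows in the RefSeq table held at least 1, against 6.75% for AP-1 and 12.4% for the TATA box. Among the 10 windows of members (S100a16 has 2, and S100a10 was not in the table), 2 held a C/EBP match, 2 an AP-1 match and 2 a TATA box. A loose NF-kB consensus occurred in 7 of the 10 windows and in 45.8% of all windows, and the hypoxia response element ACGTG in 1 and in 16.6%. The windows of S100a1 and S100a13 overlap, and the NF-kB match of S100a1 lies in both, so it is counted for both genes. A match of letters is a description of the window and not a binding site.

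The arrays were comparable in depth of signal. Between 61.4% and 66.4% of the spots of MI mice and between 58.6% and 65.8% of those of sham-operated mice were well above background. Correlations between mice of the same group ran from 0.990 to 0.995. All arrays came from 1 slide and 1 scan. The heart markers Myh6, Tnnt2 and Actc1 were bright on every array. The scanner signals were put on the scale of the authors, who normalized with spike-in RNA, as log2 of the signal plus a small constant for each array. Groups were compared in limma over 34038 probes with Benjamini-Hochberg adjustment. A gene passed the test at an adjusted p under 0.05, and it was called when its fold change was also over 2. Of all probes, 3.48% were called, 3.07% higher and 0.405% lower in MI mice, which makes 88.3% of 1184 calls higher. With arrays scaled to their 75th percentile instead, 72.2% of calls (1043 higher and 401 lower) were higher. The median log2 fold change of all probes was 0.12 on the spike-in scale and -0.02 on the percentile scale, a shift of 0.14.

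Of the 10 S100 genes, 3 rose after MI and were called, and none passed the test as lower by limma. At an unadjusted p under 0.05 the counts were 4 higher and 1 lower, and by significance analysis of microarrays (SAM), a permutation method, 4 higher and 0 lower. Of the 34038 retained probes, 3875 passed by SAM at any fold, in either direction. The share of all genes at an unadjusted p under 0.05 was not computed. Unadjusted counts, here and for the gene lists below, therefore have no background beside them and are descriptions. S100a8 rose most, S100a9 rose nearly as much, and S100a11 rose to just over 2-fold. The other 7 genes did not pass the test, with adjusted p-values from 0.112 for S100b to 0.941 for S100a13 (limma). Among all genes with a symbol, 4.6% were called, 4.06% higher and 0.541% lower. The median log2 fold change of the 10 genes was 0.37, beside 0.07 over all genes, and 7 of the 10 had a higher mean in MI mice, beside 58.7% of all genes. Groups did not overlap for 4 S100 genes, all higher in MI mice, where 9.45% of genes had every MI mouse above every sham-operated mouse and 3.59% had every MI mouse below. Chosen with results of these mice known, the 10 genes are no random draw, and these counts are descriptions. All 10 were well above background on all 8 arrays and none was saturated.

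**Figure D1:**
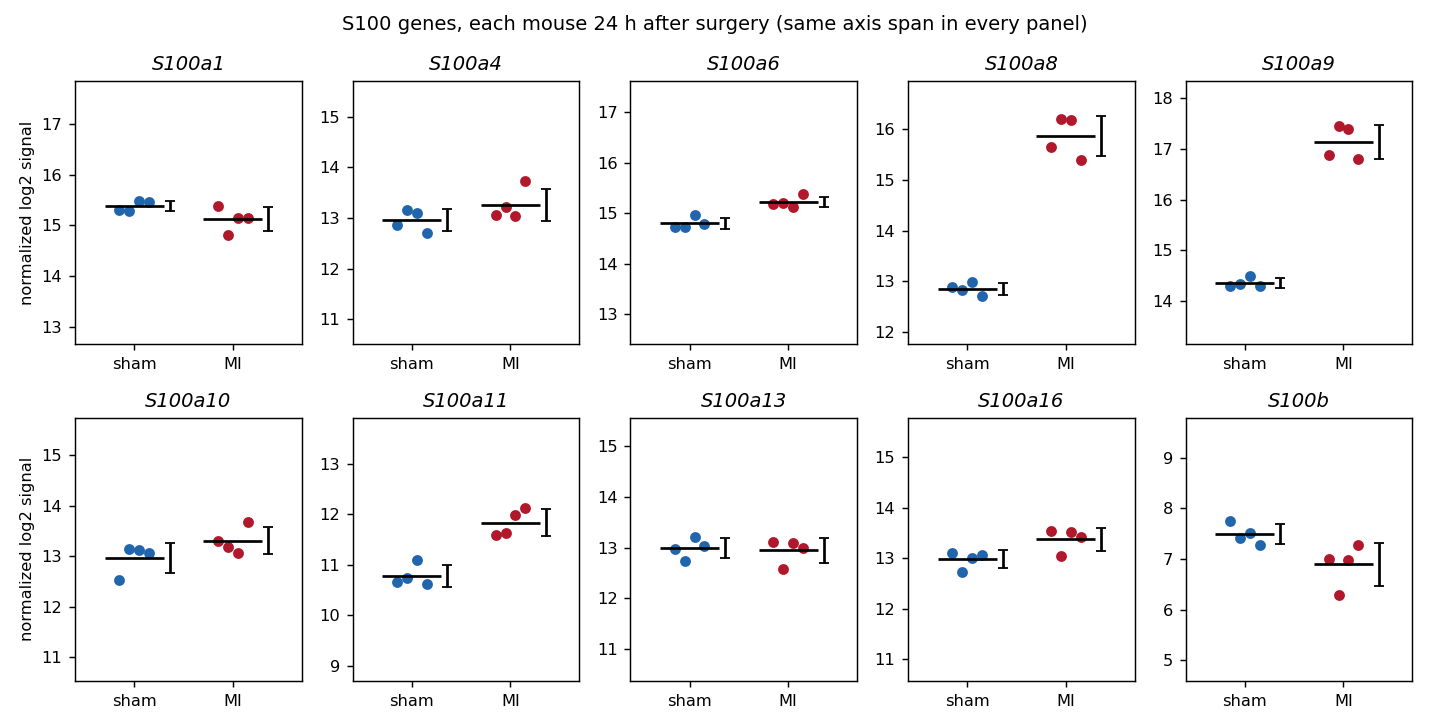
Normalized log2 signal (vertical axis) of the 10 S100 genes in each sham-operated (blue) and MI (red) mouse; lines are group means and bars are SD, n = 4 per group. All panels span the same number of log2 units; the groups stand far apart for S100a8 and S100a9, less for S100a11 and narrowly for S100a6.

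S100a8, the smaller subunit of calprotectin, had log2 signals of 15.66, 16.21, 16.19 and 15.41 in MI replicates 1 to 4. In sham-operated replicates 1 to 4 they were 12.89, 12.82, 12.98 and 12.70. The lowest MI mouse thus stood more than 2 log2 units above the highest sham-operated mouse. Mean log2 signals were 15.86 ± 0.40 (SD, n = 4) after MI and 12.85 ± 0.12 (SD, n = 4) after sham surgery. The log2 fold change was 3.02 (SE 0.22, limma adjusted p = 3.31e-10), or 8.09-fold, and it ranked 36 among 15156 genes. Within the row of arrays that held replicates 1 and 2 it was 3.08, and within the row of replicates 3 and 4 it was 2.96.

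S100a9, the partner of S100a8 in calprotectin, had log2 signals of 16.88, 17.46, 17.39 and 16.80 in MI mice and of 14.28, 14.33, 14.48 and 14.29 in sham-operated mice. MI replicates 2 and 3 were the high pair and replicates 1 and 4 the low pair for both genes. The log2 fold change was 2.79 (SE 0.21, limma adjusted p = 8.18e-10), or 6.89-fold, at rank 47 of 15156. For each of the 2 genes the exact two-sided permutation p was 0.0286, the smallest that 4 against 4 mice allow. Sham-operated mice already had clear signals for both genes, well above background on 4 of 4 arrays.

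S100a8 and S100a9 were also read against each other on the same array, where the scale of the array cancels. The difference S100a8 minus S100a9 was -1.22, -1.25, -1.21 and -1.39 log2 units in MI mice and -1.39, -1.51, -1.50 and -1.59 in sham-operated mice. The group means differed by 0.23. This pair and the 2 further pairs of S100 genes given below were picked after the values were seen, so their differences are descriptions with no test.

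S100a11, which binds annexin A1 at membranes and takes part in membrane repair, had log2 signals of 11.59, 11.64, 11.98 and 12.13 in MI mice and 10.67, 10.73, 11.10 and 10.62 in sham-operated mice. The groups did not overlap. The log2 fold change was 1.06 (SE 0.21, limma adjusted p = 0.00144), or 2.08-fold. MI replicate 4, the lowest MI mouse for S100a8 and S100a9, was the highest for S100a11. The adjusted p (for SAM, the q-value) stayed under 0.05 in all 20 alternative analyses, from 0.000556 to 0.0294, but the fold change fell below 2 in 5 of them, among them scaling to the 75th percentile (log2 fold change 0.94) and leaving out MI replicate 4 (0.96).

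**Figure D2:**
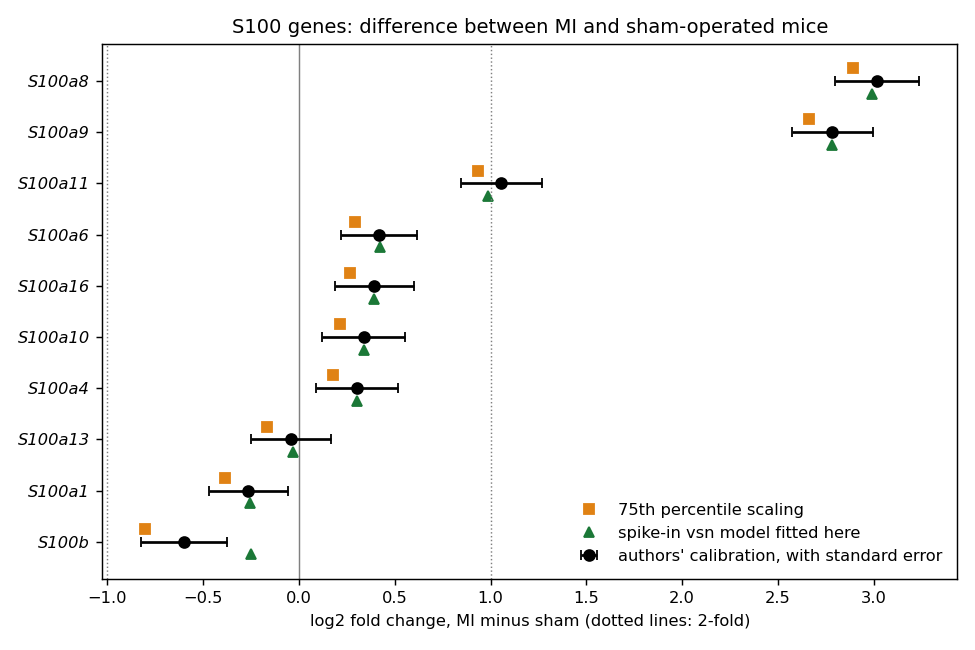
Log2 fold change, MI minus sham-operated (horizontal axis), of the 10 S100 genes: black points are the values on the calibration of the authors with limma standard errors, orange squares the values after scaling to the 75th percentile, and green triangles those of a spike-in vsn model with larger constants. S100a8 and S100a9 lie near 3 under all 3 scalings, S100a11 lies at the 2-fold line, and the placing of S100b varies most.

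S100a10, the partner of annexin A2 in a membrane-bound tetramer, lies next to S100a11 in the row of S100 genes on chromosome 3 but changed less. Its log2 signals were 13.30, 13.19, 13.05 and 13.68 in MI mice and 12.53, 13.15, 13.12 and 13.07 in sham-operated mice, and the groups overlapped. The log2 fold change of 0.34 did not pass the test (SE 0.22, limma adjusted p = 0.419). On the same array, S100a10 minus S100a11 was 1.47 ± 0.28 (SD, n = 4) after MI and 2.19 ± 0.29 (SD, n = 4) after sham surgery. The difference between the groups was -0.72 log2 units.

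S100a6, also named calcyclin and known from fibroblasts and proliferating cells, had log2 signals of 15.18, 15.21, 15.12 and 15.37 in MI mice and 14.73, 14.73, 14.96 and 14.79 in sham-operated mice. Every MI mouse stood above every sham-operated mouse, yet the log2 fold change of 0.42 did not pass the test (SE 0.20, limma adjusted p = 0.236, exact permutation p = 0.0286). After scaling to the 75th percentile it was 0.29 and the groups overlapped. S100a4, known as fibroblast-specific protein and a partner of non-muscle myosin, had log2 signals between 13.04 and 13.72 after MI and between 12.70 and 13.16 after sham surgery. The difference in means was 0.30 log2 units (limma adjusted p = 0.477), and a second, dimmer probe of the gene gave 0.30 as well. S100a16, a widely expressed member, had a log2 fold change of 0.39 (limma adjusted p = 0.298) with its brighter probe and 0.16 with the other. MI replicate 4 had the highest log2 signal among MI mice for S100a4, S100a6, S100a10 and S100a11, whereas it had the lowest for S100a8 and S100a9. After scaling to the 75th percentile, MI replicate 4 was the highest for S100a4, S100a10 and S100a11 but not for S100a6, and it was the lowest for S100a8 but not for S100a9.

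S100a1, a positive regulator of calcium release and uptake by the sarcoplasmic reticulum, did not pass the test. Its log2 signals were 15.39, 14.80, 15.14 and 15.14 in MI mice and 15.30, 15.28, 15.48 and 15.47 in sham-operated mice, and the groups overlapped. The log2 fold change was -0.26 (SE 0.20, limma adjusted p = 0.524). A second probe on the same transcript gave 0.05, so the 2 probes disagreed in sign. The list of 8 cardiomyocyte markers, beside it, had a median log2 fold change of -0.08, with 0 genes past the test in limma or SAM and 1, lower, at an unadjusted p under 0.05. Their summed signals lay between 1723790 and 2570970 after MI and between 1839860 and 2636710 after sham surgery.

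S100a13, which takes part in the export of proteins that lack a signal peptide, lies next to S100a1 on the opposite strand, and 104 bases separate their RefSeq starts. Its log2 signals lay between 12.58 and 13.12 after MI and between 12.73 and 13.21 after sham surgery, with a log2 fold change of -0.04 (SE 0.21, limma adjusted p = 0.941). On the same array, S100a1 minus S100a13 was 2.17 ± 0.09 (SD, n = 4) after MI and 2.40 ± 0.12 (SD, n = 4) after sham surgery, a difference of -0.22 with the brighter S100a1 probe. With the other S100a1 probe, tried after the values were seen, the difference was 0.09, so its sign turned.

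S100b was dim, and its value depended on the scaling. Its log2 signals were 6.30, 6.99 and 7.28 in MI replicates 2, 3 and 4, with replicate 1 nearly equal to replicate 3. Sham-operated mice had 7.76, 7.42, 7.51 and 7.28. The groups overlapped only through the replicate 4 mice of both groups, whose signals were alike. The log2 fold change was -0.60 (SE 0.22, limma adjusted p = 0.112, exact permutation p = 0.0571), and within the 2 rows of arrays it was -0.94 and -0.26. After scaling to the 75th percentile it was -0.81 and passed the test (limma adjusted p = 0.0129). On that scale the groups did not overlap, with MI mice from 6.33 to 7.04 and sham-operated mice from 7.29 to 7.66. The vsn model fitted here, with constants above the signal of this probe, gave -0.25. Markers of Schwann cells, glia of peripheral nerves that carry S100b protein, were read beside it. Of 5 such markers 0 passed the test in limma or SAM, and 2 were lower at an unadjusted p under 0.05. The median log2 fold change was -0.43, and summed signals lay between 483 and 975 after MI and between 749 and 1120 after sham surgery. Their part in the S100b value was not tested, and fewer cells of a type and less RNA per cell cannot be told apart in whole tissue.

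Markers of neutrophils rose beside S100a8 and S100a9. Of 11 neutrophil genes, 10 had a retained probe, and 6 of these passed the test, all higher in MI mice, with 5 called. Retnlg, which encodes a resistin-like protein of myeloid cells, had log2 signals of 13.73, 14.19, 14.31 and 12.67 in MI mice and between 9.26 and 9.74 after sham surgery, a log2 fold change of 4.24 (SE 0.27, limma adjusted p = 3.2e-11). Cxcr2, the receptor for neutrophil-attracting chemokines, had a log2 fold change of 3.31 (SE 0.22, limma adjusted p = 9.57e-11). Mmp8, the neutrophil collagenase, had one of 2.82 (SE 0.24, limma adjusted p = 6.04e-09). MI replicates 2 and 3 had the highest signals, and MI replicate 4 the lowest, for Retnlg, Cxcr2 and Mmp8, the same division as for S100a8 and S100a9. Mmp9, the gelatinase stored in neutrophil granules, was called at 2.47 (SE 0.23, limma adjusted p = 2.01e-08). It ran the other way among MI mice, at 8.28, 8.13, 8.40 and 8.65, with replicate 4 highest and replicate 2 lowest. These orders of MI mice are given on the spike-in scale alone and can depend on the scaling. After scaling to the 75th percentile, the lowest MI mouse for S100a9 was replicate 1. The granule gene Ngp was not well above background in any sham-operated mouse and was retained through the MI mice alone. Its call rests on sham values near background, so its fold change is uncertain. With sham values raised at least to the dimmest detected signal of their array, it was 5.30-fold higher in MI mice. Its log2 signal was 4.84 in MI replicate 4 and between 6.65 and 7.42 in the other MI mice.

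Ltf, which encodes the granule protein lactoferrin, passed the test below 2-fold at 0.98 (SE 0.23, limma adjusted p = 0.00671), and 4 genes of the list did not pass. The Ltf probe was dim, and only 2 of 4 sham arrays had it well above background. Its fold change is therefore uncertain. Camp, the cathelicidin gene, gave 0.64 (limma adjusted p = 0.0978). The probe for Csf3r, the receptor for granulocyte colony-stimulating factor, was bright in all mice, with a log2 fold change of 0.08. Those for Mpo and Elane, genes of granule precursors, gave 0.10 and -0.08, and no probe was matched to Ly6g. Mpo was near background, between 4.04 and 5.19 in MI mice and well above background on 2 of 4 MI arrays. Elane was 12.88 in sham replicate 3 and between 10.27 and 11.01 in the other sham-operated mice. Both values are thus uncertain. Because of the bright Csf3r probe, the summed signal of the list overlapped between groups, between 49026 and 72507 after MI and between 34929 and 57034 after sham surgery. Without Csf3r, a choice made after the values were seen, it ranged from 9910 to 25212 and from 2239 to 8453. The sum of 8453 was that of sham replicate 3, the mouse with the high Elane signal. The part of neutrophil number in the S100a8 and S100a9 values was not tested.

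**Figure D3:**
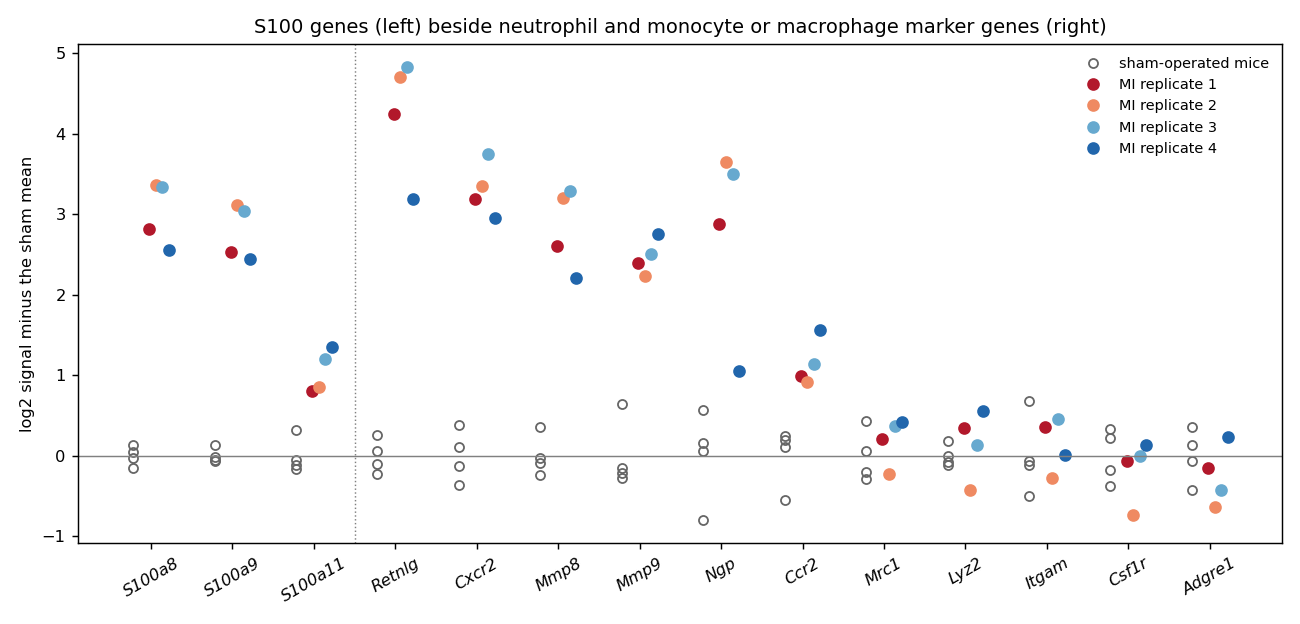
Log2 signal minus the mean of the 4 sham-operated mice (vertical axis) for S100a8, S100a9 and S100a11 on the left and for the 5 called neutrophil markers (Retnlg, Cxcr2, Mmp8, Mmp9, Ngp) and all 6 retained monocyte and macrophage markers (Ccr2, Mrc1, Lyz2, Itgam, Csf1r, Adgre1) on the right; each filled point is 1 MI mouse and each open point 1 sham-operated mouse. MI replicate 4 (dark blue) is the lowest MI mouse for S100a8, S100a9, Retnlg, Cxcr2, Mmp8 and Ngp and the highest for S100a11, Mmp9 and the monocyte and macrophage markers other than Itgam. The neutrophil markers were picked by their calls and the monocyte and macrophage markers were not, so the figure does not compare the lists. Retained neutrophil markers that were not called are not drawn: Csf3r (log2 fold change 0.08), Mpo (0.10), Elane (-0.08), Camp (0.64) and Ltf (0.98). Ngp was retained through the MI mice alone.

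Over the 8 mice, the profile most like that of S100a8 was that of S100a9, out of 15155 other genes. Likeness was measured as the root mean square distance between log2 values centred on the mean of each gene, which was 0.136 for this pair. Outside the S100 genes, the nearest to S100a8 were Fpr2, a receptor for formylated peptides (0.169), the stefin Stfa2 (0.182), Mmp8 (0.186), Cd33, a sialic acid-binding lectin of myeloid cells (0.199), and Ereg, which encodes the growth factor epiregulin (0.199). The nearest to S100a9 were Cd33 (0.185), Ereg (0.220), Mmp8 (0.220), Gm14548 (0.230) and the inhibitory receptor Lilrb4a (0.249). These 7 genes had log2 fold changes from 2.43 to 3.28. Stfa2 belongs to a family of near-identical copies, so its probe may not be specific. The measure follows the size of the fold change above all, and it says nothing of shared function.

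Known receptors, binding partners, targets and regulators of S100 proteins were then read from the same fit. Of the 42 genes on this list, 37 had a retained probe, 9 passed the test, all higher in MI mice, and 5 of these were called. With the vsn model fitted here or with normexp background correction, 1 was called. Which of the 5 calls remained is not given here, so single calls below hold for the main scale alone. Over all genes, 7.74% passed the test as higher and 1.77% as lower, and the list had a median log2 fold change of 0.42.

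Receptors through which released S100 proteins signal stayed largely below the threshold. Ager, which encodes RAGE, the receptor for advanced glycation end products, had no retained probe. Tlr4, the Toll-like receptor that responds to S100a8 and S100a9, had log2 signals between 9.09 and 9.69 after MI and between 8.82 and 9.70 after sham surgery, with a log2 fold change of 0.03 (SE 0.22, limma adjusted p = 0.962). Its coreceptor Ly96 gave 0.02 (limma adjusted p = 0.980). The adaptor Myd88, downstream of Tlr4, rose with a log2 fold change of 0.94 (SE 0.23, limma adjusted p = 0.00904). Alcam, a cell adhesion molecule described as a receptor of S100b, was called with a log2 fold change of 1.32 (SE 0.20, limma adjusted p = 6.38e-05).

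Among annexins and other membrane partners, Anxa2 and Plat rose and 6 of 8 retained genes did not pass. Anxa2, the partner of S100a10, had a log2 fold change of 0.89 (SE 0.21, limma adjusted p = 0.00641), and its groups did not overlap. Plat, the tissue plasminogen activator, which binds the S100a10 complex, had one of 0.78 (SE 0.22, limma adjusted p = 0.0263). Anxa1, the partner of S100a11, gave -0.02 (SE 0.20, limma adjusted p = 0.965) with its brighter probe and 0.24 with the other, while S100a11 itself was called. Of the intracellular partners, Myh9, the heavy chain of the non-muscle myosin that S100a4 binds, had a log2 fold change of 0.99 (SE 0.22, limma adjusted p = 0.00337). Trp53, whose protein binds several S100 proteins, was called at 1.01 (SE 0.21, limma adjusted p = 0.0023). Cacybp, the calcyclin-binding protein, gave -0.07 (limma adjusted p = 0.891).

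The calcium and sarcomere targets of S100a1 showed no call in limma or SAM, and 1 of 4 was lower at an unadjusted p under 0.05. Ryr2, the release channel of the sarcoplasmic reticulum, gave -0.16, Atp2a2, the calcium pump SERCA2, -0.37, and Pln, the inhibitor of that pump, -0.56 (limma adjusted p = 0.140). The 2 Atp2a2 probes disagreed, at -0.37 and 0.50. In the NADPH oxidase, to which calprotectin delivers arachidonic acid in phagocytes, Rac2 was called with a log2 fold change of 1.58 (SE 0.22, limma adjusted p = 1.06e-05). The catalytic subunit Cybb gave 0.61 (limma adjusted p = 0.120).

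Transcription factors linked to S100a8 and S100a9 in myeloid cells gave 2 calls among 6 genes. Cebpe, a factor of late granulocyte differentiation, had log2 signals of 7.18, 7.13, 7.34 and 7.57 in MI mice and of 5.32, 5.78, 5.36 and 5.32 in sham-operated mice. Its log2 fold change was 1.86 (SE 0.21, limma adjusted p = 4.64e-07). Spi1, the myeloid factor PU.1, had one of 1.59 (SE 0.24, limma adjusted p = 5.29e-05), but the probe was well above background on 4 MI arrays and only 1 sham array. It was retained through the MI mice, and its level in 3 of 4 sham-operated mice is near background, so this fold change is uncertain. Cebpb and Cebpd, C/EBP factors of inflammation present in many cell types, gave 0.36 (limma adjusted p = 0.395) and 0.41 (limma adjusted p = 0.299), and Stat3 and Hif1a did not pass.

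**Figure D4:**
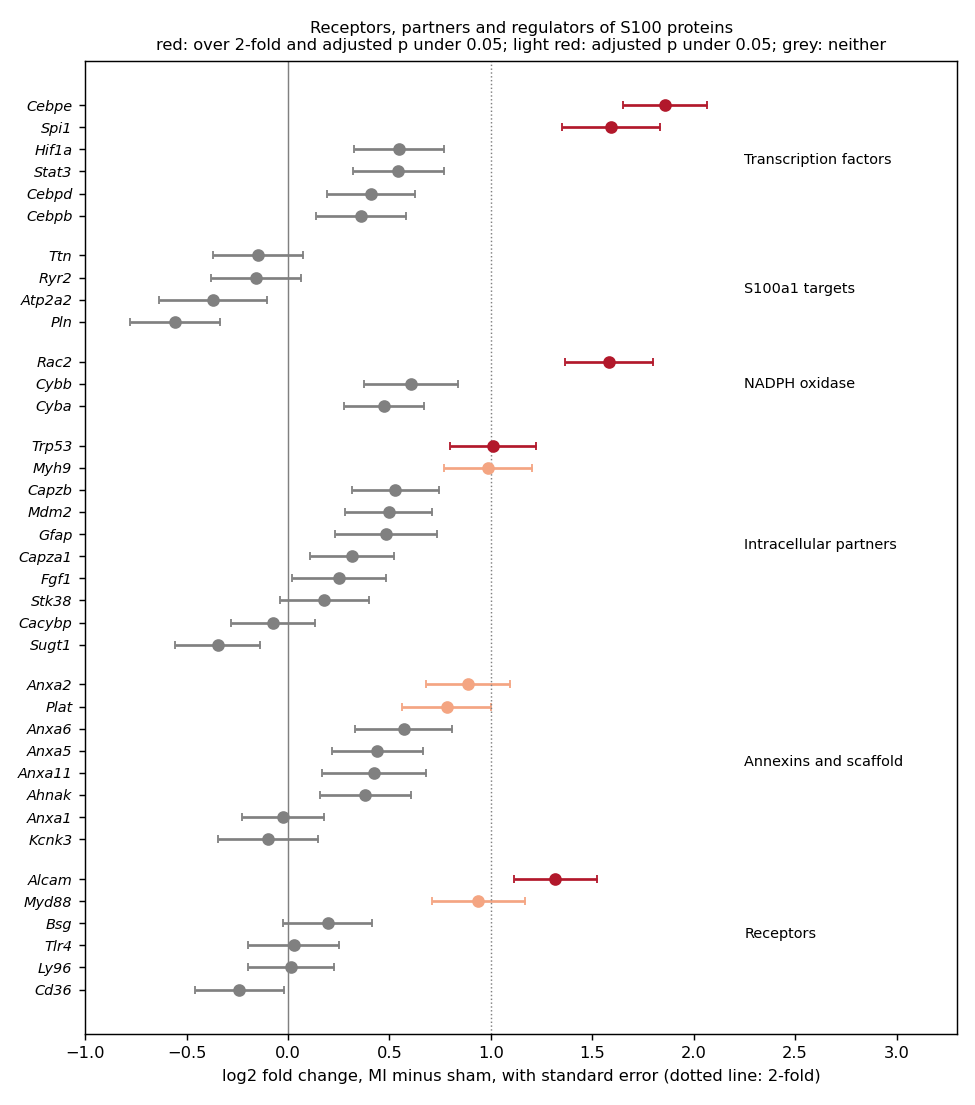
Log2 fold change, MI minus sham-operated, with limma standard errors (horizontal axis) of 37 receptors, partners, targets and regulators of S100 proteins, grouped by role. Red points are the 5 called genes (Alcam, Trp53, Rac2, Spi1, Cebpe), light red points passed the test below 2-fold, and grey points did not pass; the 4 targets of S100a1 lie between -0.56 and -0.15.

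The array also held probes for 8 S100 family genes outside the chosen 10, and these gave no call in limma or SAM, with 1 higher at an unadjusted p under 0.05. S100a7a, S100a7l2, S100g and S100z had no retained probe. S100a2, S100a3, S100a5 and S100a14 were dim, with log2 fold changes from 0.27 to 0.45 and adjusted p-values from 0.231 to 0.580 (limma). S100pbp, which is not an S100 protein but binds one, had a log2 fold change of 0.68 (SE 0.21, limma adjusted p = 0.0407) with its brighter probe and 0.63 (limma adjusted p = 0.0538) with the other. By the order of genes in RefSeq, 9 of the 10 chosen genes lie on chromosome 3, and S100b lies on chromosome 10. The genes called did not form a run there: S100a8 and S100a9 are neighbours, while S100a7l2 lies between S100a9 and S100a11 in the order of S100 genes, followed by S100a10.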

How the data were processed

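One-colour labeled ventricular RNA, from 1 mouse per array and 4 mice per group, was hybridized to the mouse SurePrint G3 8x60K array. The deposited intensity used was, per the file headers, the processed signal from Agilent's Feature Extraction 11.0.1.1, with local background subtracted, spatial trends removed and a surrogate value for dim spots; the median intensities of spot and background were used as deposited for 1 alternative. The log2 values of the authors cover spots well above background and were normalized on spike-in probes with limma and vsn, whose versions are not given in the sources used here.

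Set against the scanner signals, the authors' log2 values equal log2(signal + a) + b, with a largest misfit of 5e-09, a from 3.16 to 19.6 and b from -0.34 to 0.41. These constants were applied to all spots. Spots marked as outliers were left out, spots of a probe averaged, and probes well above background on at least 4 of 8 arrays retained (34038 of 55681). The vsn likelihood, refitted here to 234 spots of 7 spike-in probes as an alternative, gave constants from 165 to 256.

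Groups were compared in limma 3.58.1 (R 4.3.3) without covariates, and single values by exact two-sided permutation. Python 3.11.15, numpy 2.4.6, scipy 1.17.1, pandas 2.3.3 and matplotlib 3.10.9 were used. The scripts were tested on simulated data. Symbols came from RefSeq accessions of the GRCm38.p6 annotation. The array design names the mm9 build, so gene positions are given for order alone. Named genes were all S100 genes on the array, a fixed set of partners and any called, up to 3 called genes per cell type list, and the 5 nearest in profile to S100a8 and to S100a9; Mmp9, Ngp, Csf3r, Mpo, Elane, Myd88, Plat and others were named after their values were seen. The members and lists were chosen with earlier results of these data known. Protein sequences were not used here. Precision is limited by the number of arrays, and p-values refer to these mice alone. In limma, the variance of each probe is drawn toward a value shared over all probes. The limma p-values therefore do not measure the spread of a gene between these mice by itself. Standard errors of the chosen S100 genes ran only from 0.198 to 0.225. S100a6 had SDs of 0.107 after MI and 0.110 after sham surgery, but a limma standard error of 0.198.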

Additional observations from a re-analysis of the deposited data

Results flagged for a closer look

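For S100a10, sham replicate 1 had a log2 signal of 12.53, apart from the other 3 sham-operated mice, which lay between 13.07 and 13.15. The gap took 0.880 of the range of the group, above the critical value of Dixon's test for 4 samples. It was 1 of 20 groups examined, and chance gives such a gap in about 1 of 20. Without sham replicate 1 the log2 fold change of S100a10 was 0.19, beside 0.34 with all mice.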

How the results depend on the processing

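Across 20 alternatives, S100a8 and S100a9 stayed past both thresholds, with log2 fold changes from 2.89 to 3.17 and from 2.66 to 2.90. S100a11 passed the test in all 20 but fell under 2-fold in 5, at 0.94 after scaling to the 75th percentile, 0.99 with the vsn model fitted here, 0.98 after quantile normalization, 0.93 with normexp and 0.96 without MI replicate 4, so that 2 S100 genes were then called. S100 genes past the test at any fold numbered 5 after quantile normalization and 5 with normexp, beside 3. The additions were S100b (-0.85, adjusted p = 0.0117 from limma) and S100a16 (0.35, adjusted p = 0.0438) after quantile normalization, and S100b (-0.58, adjusted p = 0.00301) and S100a1 (-0.36, adjusted p = 0.0462) with normexp. S100a6 passed with the vsn model (adjusted p = 0.0205 from limma) and by significance analysis of microarrays (q = 0.0153). S100a13, never past the test, changed sign in 2 alternatives.

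Probes called fell from 1184 to 333 with the vsn model and 524 with normexp, and partner genes called from 5 to 1 under each of these. Probes past the test at any fold, 2590 here, numbered 5973 after scaling to the 75th percentile, 6173 after quantile normalization, 6137 with normexp, 1271 with the vsn model and 990 with no detection filter. The cause was not tested. With each mouse left out, 1046 to 1461 probes were called. Mice with the same replicate number lay side by side on the slide, and the labels give no other link. Their deviations correlated at 0.238, 0.292, 0.143 and 0.011, so that not every pair exceeded 0.1, and MI replicates 3 and 4 did not correlate best with their own number. With the replicate number as a block, 4895 probes passed the test and 1155 were called, and the calls of the S100 genes were as without it.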

Other observations

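Other cell type lists moved less than the neutrophil list. Of 8 monocyte and macrophage genes, 6 had a retained probe. No probe was matched to Cd68 or Ly6c2, so these genes were not read, although the authors report a rise of Cd68 after MI on these arrays. With the brightest probe of each of the 6 genes, only Ccr2, the chemokine receptor of recruited monocytes, was called. Its log2 fold change was 1.15 (SE 0.23, limma adjusted p = 0.00112). Csf1r and Adgre1, markers of macrophages, gave -0.16 and -0.24, and Mrc1 and Lyz2 0.20 and 0.15, with their brightest probes, and the highest Csf1r probe gave 0.46. For Itgam the 3 retained probes spread from 0.14 to 1.71, and the brightest probe gave the lowest value. The paper lists Itgam among its differentially expressed genes, so the absence of a call here rests on the choice of probe. The median of the list was 0.14. Of 5 smooth muscle and pericyte genes, Acta2, the smooth muscle actin, was called with a log2 fold change of 1.46 (SE 0.25, limma adjusted p = 0.000237). Its lowest MI mouse was replicate 4, as for S100a8. The other 4 genes did not pass the test, with log2 fold changes from -0.34 to 0.54, and the median of the list was -0.02.

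None of the 6 fibroblast genes, of the 6 endothelial genes or of the 4 adipocyte genes passed the test by limma, with medians of -0.47, 0.27 and -0.08, nor by SAM. At an unadjusted p under 0.05, 2 fibroblast genes were lower, 2 endothelial genes were higher and 0 adipocyte genes differed. Of 3 retained T cell genes, Cd3d passed at 0.90, and of 4 B cell genes, Cd79b passed at 0.73, with 0 called in each list. The medians were 0.21 for T cells and 0.70 for B cells. At an unadjusted p under 0.05, 1 T cell gene and 3 B cell genes were higher, and by SAM 1 in each list. Cd79a and Ms4a1 were each well above background on 3 MI arrays and 1 sham array, so their values are uncertain.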
